A study of Mus musculus with 12 samples.

Results

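The latent TGF-beta system was followed through 10 genes: the ligands Tgfb1, Tgfb2 and Tgfb3, the receptors Tgfbr1, Tgfbr2 and Tgfbr3, and the latent TGF-beta binding proteins Ltbp1, Ltbp2, Ltbp3 and Ltbp4. They were chosen by gene symbol, as probe sets annotated to exactly 1 of these 10 symbols, but with earlier results of these data known. Of 18193 genes on the array with such a probe set, these 10 had 24 of the 45101 probe sets, and 17 of the 24 reached the signal of 50 in at least 1 zone that was asked of a tested probe set. All 10 genes had a tested probe set, and the probe set with the highest mean log2 signal stood for its gene.

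CD1 mouse embryos of embryonic day 15.5 gave the tibiae, which were cut by hand into 3 zones with no treatment and no genetic change. Zone I is the end of the bone with resting and proliferating cells, zone II the next segment with mostly prehypertrophic and hypertrophic chondrocytes, and zone III the mineralised part with the most mature hypertrophic chondrocytes. Each zone was pooled over the embryos of a litter, and 4 litters gave 4 MOE 430 2.0 arrays per zone, labelled A to D. A segment cut by hand holds every cell type of that stretch of tibia, so fewer cells of a type and less RNA per cell cannot be told apart in any value below.

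TGF-beta is secreted in a latent complex, in which its own propeptide surrounds the ligand and a latent TGF-beta binding protein ties the complex to fibrillin microfibrils of the matrix. Integrins, proteases and thrombospondin release the ligand, which binds the type II receptor Tgfbr2, and this recruits and phosphorylates the type I receptor Tgfbr1, which in turn phosphorylates Smad2 and Smad3. In the growth plate the pathway is known as a brake on chondrocyte hypertrophy, and TGF-beta stored in bone matrix is released when the matrix is resorbed.

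The arrays were alike in scale. The mean signal after trimming was 150 on all 12 arrays, the median signal lay between 32.4 and 43.3, and 18407 to 21170 probe sets reached a signal of 50. Marker genes matched the zone labels: summed signals of 5 hypertrophic markers (Col10a1, Ihh, Panx3, Pth1r, Mef2c) were 1125 to 1290 for zone I, 11992 to 13295 for zone II and 7504 to 8960 for zone III, and those of 8 osteoclast markers were 680 to 770, 666 to 1649 and 11982 to 14245 in the same order. The 3′/5′ signal ratio of Gapdh, a sign of RNA quality and labelling, was 1.98 to 2.28 in zone III, against 1.25 to 1.76 in zones I and II, while that of beta-actin ran the other way, at 1.70 to 2.02 in zone III, against 2.09 to 3.23 in zones I and II. The part of either in the values of zone III was not tested. Array A of zone II stood above the other 3 of its zone in markers of osteoclasts (1649 against 666 to 881), endothelial cells (521 against 247 to 324) and perichondrium (4544 against 2451 to 2682), and array A of zone I above the other 3 of its zone in markers of skeletal muscle (1076 against 215 to 462), endothelial cells (1237 against 666 to 834) and macrophages (1749 against 953 to 1226), so counts are also given without each of them. In all 3 zones array A was also the highest in markers of erythroid cells, osteoblasts, osteoclasts, macrophages, and perichondrium and fibrous tissue. Its erythroid sums were 234 against 125 to 183 in zone I and 294 against 48.9 to 103 in zone II. In zone III its erythroid sum was 377 against 211 to 237.

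Promoter sequences are shown for 4 members that carry the main contrasts: Tgfb1 and Tgfb2, the ligands with their highest signals in zones III and II in that order, and Tgfbr2 and Ltbp1, a receptor and a binding protein that were both lowest in zone II. Each is the stretch of 250 bases before a transcription start in RefSeq (GRCm38.p6), written from 5′ to 3′ on the gene's strand. This start need not be the gene's most upstream one. Capitals mark matches, read on either strand, to motifs with these letters. A GC box was GGGCGG and a TATA box was TATAAA. The letters of a CCAAT box are its name, a CRE had TGACGTCA and an E box had CACGTG. A pair of facing Smad boxes was written GTCTAGAC. The position of Tgfb1 is chr7:25686752-25687001 on the plus strand, of Tgfb2 chr1:186705990-186706239 on the minus strand, of Tgfbr2 chr9:116175364-116175613 on the minus strand and of Ltbp1, at the more upstream of 2 starts with a window, chr17:75005279-75005528 on the plus strand. The Tgfb2 gene spans chr1:186622787-186709697, so its window lies inside the gene, at a start downstream of the gene's 5′ end. The first base of the Ltbp1 gene, 75005480, falls inside its window.
Tgfb1: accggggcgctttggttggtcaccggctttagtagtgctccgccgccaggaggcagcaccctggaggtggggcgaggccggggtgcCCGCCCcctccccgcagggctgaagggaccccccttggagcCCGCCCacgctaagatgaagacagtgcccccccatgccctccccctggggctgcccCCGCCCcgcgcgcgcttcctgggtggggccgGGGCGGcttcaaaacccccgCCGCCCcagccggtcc
Tgfb2: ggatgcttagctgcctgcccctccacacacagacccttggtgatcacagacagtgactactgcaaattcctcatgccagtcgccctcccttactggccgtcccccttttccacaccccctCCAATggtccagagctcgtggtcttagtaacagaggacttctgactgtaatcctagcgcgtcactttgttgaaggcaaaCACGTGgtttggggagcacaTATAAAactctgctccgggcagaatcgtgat
Tgfbr2: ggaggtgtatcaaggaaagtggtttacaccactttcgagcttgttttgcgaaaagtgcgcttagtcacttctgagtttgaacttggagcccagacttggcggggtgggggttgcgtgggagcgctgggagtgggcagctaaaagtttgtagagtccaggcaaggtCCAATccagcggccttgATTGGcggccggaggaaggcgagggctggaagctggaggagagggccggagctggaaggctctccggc
Ltbp1: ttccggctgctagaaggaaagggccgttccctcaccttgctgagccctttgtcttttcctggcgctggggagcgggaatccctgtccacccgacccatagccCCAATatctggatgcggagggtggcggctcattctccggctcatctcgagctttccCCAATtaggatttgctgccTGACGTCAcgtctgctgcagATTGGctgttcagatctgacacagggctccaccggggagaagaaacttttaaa
The windows of the 2 ligands shared none of these motifs. The Tgfb1 window held 5 GC boxes and no TATA box at a GC content of 75.2%, whereas the Tgfb2 window, at 53.6% GC, held a TATA box at -31, an E box at -51, a CCAAT box and no GC box (first base, counted from the start that the window precedes). Tgfbr2 and Ltbp1 had neither a GC box nor a TATA box, with 2 and 3 CCAAT boxes and, in Ltbp1, 1 CRE. Among all 32851 windows of this length, whose median GC content was 52.4%, 32.7% held a GC box, 12.4% a TATA box, 33.8% a CCAAT box, 6.02% an E box and 1.55% the CRE, so the GC and CCAAT boxes are common. The pair of Smad boxes was in 0.167% of all windows and in none of the 12 windows found for 8 members. A match is a description of letters and says nothing of binding. Tgfb3 and Tgfbr3 are not shown.

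The 3 ligands followed 3 different courses along the tibia. Tgfb1, the isoform most abundant in bone matrix, was highest in zone III. Its signals on arrays A to D were 40.5, 49.97, 25.2 and 26.8 for zone I, 86.8, 58.7, 49.99 and 60.5 for zone II and 161, 129, 135 and 158 for zone III. The zones did not overlap, although zone I stayed under the signal of 50, where folds depend on the background. Tgfb1 rose by a log2 difference of 0.87 ± 0.23 (SE, 1.83-fold, adjusted p = 0.00943, limma) in zone II against zone I and by 1.21 ± 0.23 (2.31-fold, adjusted p = 0.000768) in zone III against zone II, and it was 4.23-fold higher in zone III than in zone I (2.08 ± 0.23, adjusted p = 1.45e-05).

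Tgfb2, the isoform best known from epithelial and mesenchymal signalling during limb and heart development, was highest in zone II. Its signals were 374, 349, 326 and 381 for zone I, 661, 517, 601 and 702 for zone II and 445, 403, 444 and 463 for zone III. Every zone II array lay above all arrays of the other zones. It rose in zone II against zone I by 0.79 ± 0.12 (1.73-fold, adjusted p = 0.000222) and fell in zone III against zone II by 0.49 (-0.49 ± 0.12, 1.41-fold, adjusted p = 0.00365), but with signals centred on ribosomal protein genes this fall was -0.10 and did not pass (adjusted p = 0.532). The difference of 0.30 ± 0.12 between zones III and I did not pass (adjusted p = 0.0593), but it passed in 9 of 26 alternative fits. Among these was the fit without array B of zone II (0.30, adjusted p = 0.0372). Another had the array letter, A to D, as a block in the fit, which compares the zones within each letter (0.30, adjusted p = 0.0433).

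Tgfb3, which acts in palate fusion among other places, changed little. Its signals were 380, 343, 238 and 217 for zone I, 225, 206, 163 and 187 for zone II and 249, 245, 247 and 234 for zone III. Zone I was the widest of the zones and overlapped with both others, while zone III lay within 234 to 249. It fell in zone II against zone I by 0.56 (-0.56 ± 0.18, adjusted p = 0.0239), and this call was lost without array A (-0.43, adjusted p = 0.0688) or B of zone I (-0.48, adjusted p = 0.0659) and without array C (-0.48, adjusted p = 0.0673) or D of zone II (-0.55, adjusted p = 0.0505). The differences of 0.33 ± 0.18 between zones III and II (adjusted p = 0.142) and of -0.24 ± 0.18 between zones III and I (adjusted p = 0.318) did not pass.

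**Figure D1:**
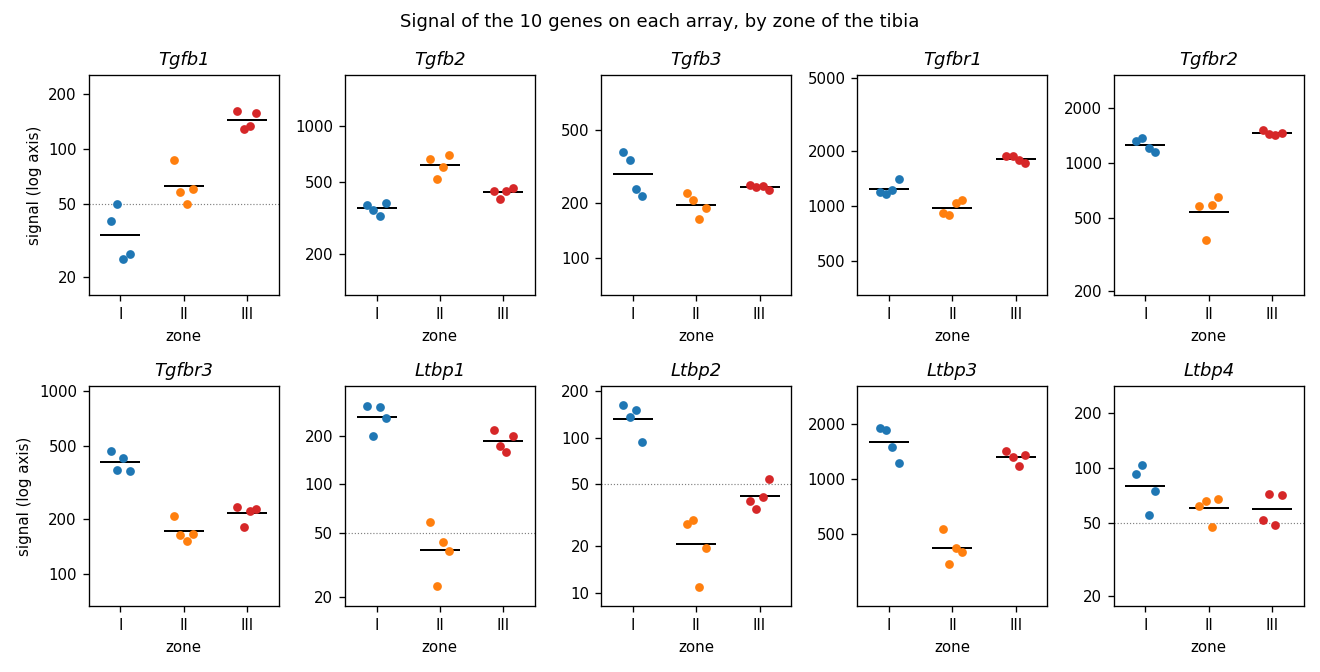
Signal of each of the 10 genes (log axis, every panel at least 16-fold high) by zone (I, II, III from left to right), with 1 point per array, a black line at the geometric mean of the 4 arrays and a dotted line at the signal of 50 where it falls within the panel. Tgfb2 peaked in zone II and Tgfb1 in zone III, while Tgfbr2, Ltbp1 and Ltbp3 had their lowest 4 arrays in zone II.

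All 3 receptors were lower in zone II than in zone I, and 2 of them were higher again in zone III. Tgfbr2, the ligand-binding type II receptor kinase, had signals of 1311, 1375, 1211 and 1144 for zone I, 584, 379, 589 and 653 for zone II and 1506, 1445, 1425 and 1448 for zone III. No zone II array reached above 653, and all zone III arrays lay above all zone I arrays. Tgfbr2 fell 2.33-fold in zone II against zone I (-1.22 ± 0.15, adjusted p = 6.73e-05) and rose 2.69-fold in zone III against zone II (1.43 ± 0.15, adjusted p = 8.54e-06). Zones III and I differed by 0.21 ± 0.15, which did not pass (adjusted p = 0.303).

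Tgfbr1, the type I receptor kinase that passes the signal to the Smads, moved less. Its signals were 1192, 1169, 1220 and 1401 for zone I, 916, 897, 1034 and 1077 for zone II and 1886, 1880, 1774 and 1727 for zone III. The 3 zones did not overlap. Its rise in zone III was 1.86-fold against zone II (0.89 ± 0.11, adjusted p = 1.89e-05) and 1.46-fold against zone I (0.55 ± 0.11, adjusted p = 0.00123). Its fall in zone II against zone I was 1.27-fold (-0.35 ± 0.11, adjusted p = 0.0215), a call lost without array D of zone I (-0.29, adjusted p = 0.0574) and without array A (-0.31, adjusted p = 0.0545) or B of zone II (-0.30, adjusted p = 0.0569).

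Tgfbr3, or betaglycan, the co-receptor that has no kinase and presents TGF-beta 2 to the type II receptor, was high in zone I alone. Its signals were 470, 370, 430 and 364 for zone I, 208, 164, 151 and 164 for zone II and 231, 181, 222 and 226 for zone III. Zones II and III overlapped, and both lay below zone I. Tgfbr3 fell 2.38-fold in zone II (-1.25 ± 0.14, adjusted p = 2.27e-05) and 1.90-fold in zone III (-0.92 ± 0.14, adjusted p = 0.000174), each against zone I. The difference of 0.33 ± 0.14 between zones III and II did not pass (adjusted p = 0.0653), but did without array A of zone II (0.42, adjusted p = 0.0215) or B of zone III (0.41, adjusted p = 0.0362), and with the letter as a block (0.33, adjusted p = 0.0398). A second probe set of Tgfbr3 gave another course, described with the other probe sets.

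Ltbp1, Ltbp2 and Ltbp3 had the largest differences of the 10 genes between zones II and I. Ltbp1, which binds the latent complex covalently, had signals of 310, 201, 303 and 260 for zone I, 58.2, 23.2, 43.9 and 38.2 for zone II and 218, 173, 159 and 199 for zone III. All 4 zone II arrays were far below the others, 3 of them under a signal of 50. Ltbp1 fell 6.83-fold in zone II against zone I (-2.77 ± 0.24, adjusted p = 3.98e-06) and rose 4.79-fold in zone III against zone II (2.26 ± 0.24, adjusted p = 9.07e-06). The difference of -0.51 ± 0.24 between zones III and I did not pass (adjusted p = 0.119), but did without array B of zone II (-0.51, adjusted p = 0.0405) and with the letter as a block (-0.51, adjusted p = 0.0413).

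Ltbp3, a binding protein whose loss is known to disturb the skeleton, followed the same order at a clear signal. It had 1900, 1852, 1496 and 1227 for zone I, 532, 344, 420 and 399 for zone II and 1431, 1316, 1180 and 1350 for zone III. Zones I and III overlapped and zone II lay apart. Ltbp3 fell 3.81-fold in zone II against zone I (-1.93 ± 0.17, adjusted p = 3.41e-06) and rose 3.14-fold in zone III against zone II (1.65 ± 0.17, adjusted p = 5.00e-06), and the difference of -0.28 ± 0.17 between zones III and I did not pass (adjusted p = 0.212).

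Ltbp2, the family member known not to bind latent TGF-beta, was a gene of zone I. Its signals were 163, 135, 152 and 93.5 for zone I, 28.0, 29.7, 10.9 and 19.5 for zone II and 39.1, 34.9, 41.5 and 54.2 for zone III. Outside zone I it was near the background, with 1 of 8 arrays above a signal of 50, so its folds depend on how the background was treated. It fell 6.49-fold in zone II (-2.70 ± 0.29, adjusted p = 2.05e-05) and 3.18-fold in zone III (-1.67 ± 0.29, adjusted p = 0.000625) against zone I, and was 2.04-fold higher in zone III than in zone II (1.03 ± 0.29, adjusted p = 0.0108).

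Ltbp4, which is best known from elastic fibre assembly, passed in none of the 3 comparisons in the fit without a block. Its signals were 92.3, 103, 55.1 and 74.7 for zone I, 61.6, 66.0, 47.8 and 67.4 for zone II and 52.0, 71.7, 48.7 and 71.1 for zone III. The 3 zones overlapped. Its differences were -0.40 ± 0.21 (95% confidence interval -0.85 to 0.06, adjusted p = 0.158) between zones II and I, -0.00 ± 0.21 (-0.46 to 0.45, adjusted p = 0.986) between zones III and II, and -0.40 ± 0.21 (-0.85 to 0.05, adjusted p = 0.148) between zones III and I. Without array C of zone I the first and the last passed (-0.57, adjusted p = 0.0383, and -0.58, adjusted p = 0.0341), as they did with the letter as a block (-0.40, adjusted p = 0.0489, and -0.40, adjusted p = 0.0443).

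**Figure D2:**
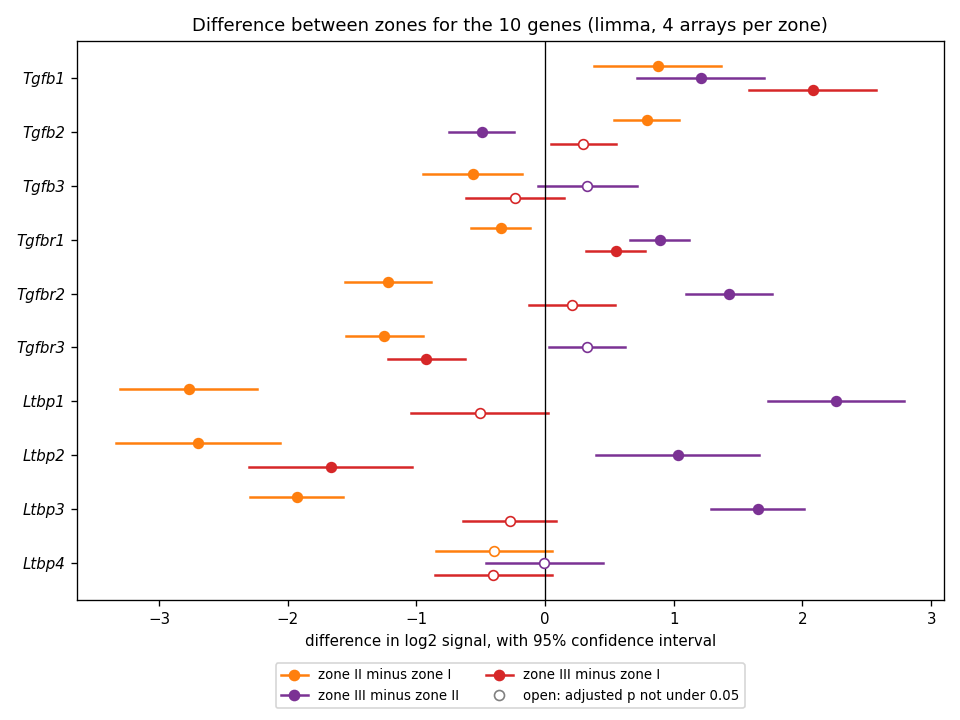
Difference in log2 signal for each of the 10 genes, with its 95% confidence interval, for zone II minus zone I (orange), zone III minus zone II (purple) and zone III minus zone I (red), from limma on 4 arrays per zone. Filled points had an adjusted p under 0.05, and for Ltbp1, Ltbp3 and Tgfbr2 the orange and the purple points lie on opposite sides of 0 while the red points are open.

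Counted over the 10 genes, zone II differed from zone I in 9, of which Tgfb1 and Tgfb2 rose and the other 7 fell. Among all 22255 probe sets tested, 15.1% rose and 22.2% fell in that comparison, and the median difference was -0.89 for the 10 genes and -0.07 for all probe sets. In zone III against zone II 6 genes rose (Tgfb1, Tgfbr1, Tgfbr2, Ltbp1, Ltbp2 and Ltbp3) and Tgfb2 fell, where 28.5% of all probe sets rose and 20.9% fell, with medians of 0.96 and 0.09. In zone III against zone I 2 genes rose (Tgfb1 and Tgfbr1) and 2 fell (Tgfbr3 and Ltbp2), where 21.0% of all probe sets rose and 19.0% fell, a share near that of all probe sets, with medians of -0.26 and 0.01. These comparisons share arrays, each zone being used in 2 of them, so a gene with low zone II signals contributes to both the first and the second. The counts were 8, 8 and 4 of the 10 genes without array A of zone II, 8, 7 and 4 without array A of zone I, and 10, 8 and 7 with the array letter as a block.

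Markers of other cell types also differed between the zones. The 8 endothelial markers all fell in zone II against zone I and all rose in zone III against zone II, and 7 of them rose in zone III against zone I. Their summed signals were 666 to 1237 for zone I, 247 to 521 for zone II and 2618 to 2939 for zone III, with Tie1, Cdh5, Pecam1, Emcn and Tek under a mean of 50 in zone II. The 7 markers of perichondrium and fibrous tissue, which include the matrix antagonist Dcn and the targets Postn and Col3a1, all fell in zone II against zone I, 5 rose in zone III against zone II and 6 fell in zone III against zone I. Their sums were 10109 to 13668 for zone I, 2451 to 4544 for zone II and 5706 to 6793 for zone III. Of 6 macrophage markers, 3 fell in zone II against zone I and 6 rose in zone III against zone II. Macrophage sums were 953 to 1749 for zone I, 520 to 848 for zone II and 4101 to 4906 for zone III.

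Tgfbr2, Ltbp1, Ltbp2 and Ltbp3, like these lists, had their lowest mean in zone II, as did Tgfb3, Tgfbr1 and Tgfbr3. Ltbp4 was about equal in zones II and III, with means of 60.7 and 60.9. Tgfb1 and Tgfb2 had their lowest mean in zone I. The 9 chondrocyte markers ran otherwise, with 4 rises in zone II against zone I and 9 falls in zone III against either zone, and sums of 22700 to 27968 for zone I, 34604 to 38554 for zone II and 10370 to 13016 for zone III. The part of any of these cell types in the values of the 10 genes was not tested. Array A of zone II had the highest endothelial and fibrous sums of its zone. Without it the differences between zones II and I were -2.97 for Ltbp1 (-2.77 with it), -2.85 for Ltbp2 (-2.70) and -2.05 for Ltbp3 (-1.93). They were -1.26 for Tgfbr2 (-1.22), -1.35 for Tgfbr3 (-1.25), -0.64 for Tgfb3 (-0.56) and -0.41 for Ltbp4 (-0.40). The fall of Tgfbr1 was smaller without it, at -0.31 (-0.35), as were the rises of Tgfb1, at 0.72 (0.87), and Tgfb2, at 0.76 (0.79).

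**Figure D3:**
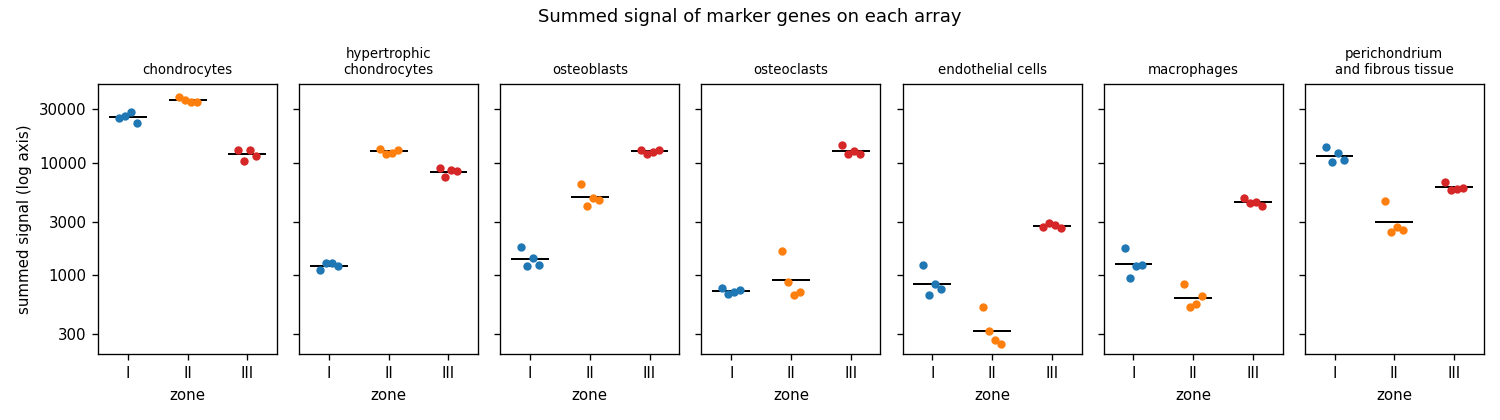
Summed signal (log axis) of the marker genes of 7 cell types in zones I, II and III, with 1 point per array and a line at the geometric mean of 4 arrays. Endothelial, macrophage and fibrous sums were lowest in zone II, at 247 to 521, 520 to 848 and 2451 to 4544, whereas chondrocyte sums were highest there, at 34604 to 38554.

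By the hybridization date in their records the arrays fell into 3 groups of 4, called runs here, each with all zones. Within each run, the differences of all 20 called pairs of gene and comparison had the sign of the pooled value. Where the arrays of 2 zones do not overlap, any split of them must give that sign. This held for every called pair but Tgfb3 between zones II and I, so the runs are no separate support for those calls. That Tgfb3 difference was -0.68, -0.38 and -0.22 in the 3 runs. The Tgfbr2 difference between zones II and I was -1.20, -1.36 and -0.81 in the 3 runs, the Ltbp3 difference was -1.82, -1.98 and -1.62, and the Tgfb2 difference was 0.87, 0.78 and 0.88. Only Tgfb3, Ltbp3 and Ltbp4 between zones III and I and Ltbp4 in the other 2 comparisons had a run of the opposite sign, and none of these had passed.

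Several genes were measured by more than 1 tested probe set. The 2 further Tgfb2 probe sets also peaked in zone II, with rises of 1.22 ± 0.14 and 1.04 ± 0.14 against zone I (adjusted p = 3.50e-05 and 0.000128) and falls of 0.65 and 0.68 in zone III against zone II (-0.65 ± 0.14 and -0.68 ± 0.14, adjusted p = 0.00220 and 0.00169). Between zones III and I the first of them rose (0.57 ± 0.14, adjusted p = 0.00614), and the second did not pass (0.36 ± 0.14, adjusted p = 0.0605). The 3 further Ltbp3 probe sets all fell in zone II against zone I, by 1.80, 1.29 and 1.03 (-1.80, -1.29 and -1.03), and rose in zone III against zone II, by 1.82, 1.85 and 1.84, 2 of them with a mean under 50 in zones I and II. Between zones III and I they gave 0.02, 0.56 and 0.81 against the -0.28 of the brightest, none of which passed. The second Tgfb1 probe set, with zone means of 29.3 (I), 51.6 (II) and 54.2 (III), rose in zone II against zone I (0.98 ± 0.36, adjusted p = 0.0497) but did not pass in zone III against zone II (0.10 ± 0.36, adjusted p = 0.837).

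Tgfbr3 was the gene whose probe sets went opposite ways. The dimmer had signals of 46.9, 35.5, 45.1 and 61.5 for zone I, 43.5, 65.6, 62.9 and 67.0 for zone II and 87.0, 76.8, 67.7 and 85.5 for zone III. It was highest in zone III, where the brighter was at 181 to 231 and below its own zone I. The dimmer rose in zone III against zone I by 0.77 ± 0.18 (1.70-fold, adjusted p = 0.00524), where the brighter fell, and its difference of 0.35 ± 0.18 between zones II and I did not pass (adjusted p = 0.164). Statements on Tgfbr3 therefore hold for the brighter probe set alone. The 7 remaining probe sets, of Tgfb2, Tgfbr1, Tgfbr2 and Ltbp1, stayed under a mean signal of 50 in all zones and were not tested.

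**Figure D4:**
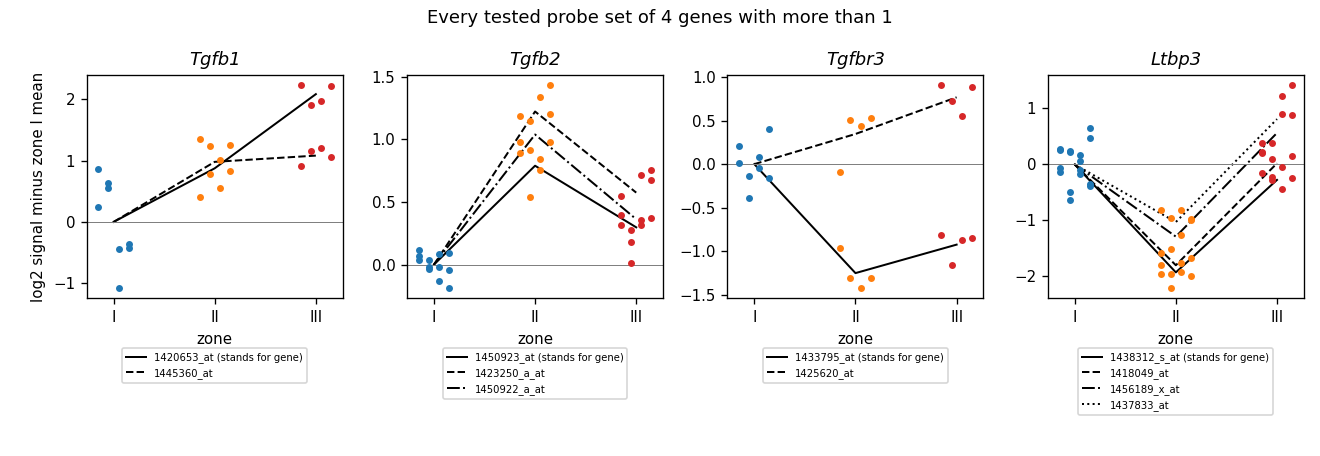
Log2 signal of every tested probe set of Tgfb1, Tgfb2, Tgfbr3 and Ltbp3, minus its own zone I mean, by zone from left to right, with 1 point per array and a line through the means of 4 arrays (solid for the probe set that stands for the gene). All lines of Tgfb2 peak in zone II and all of Ltbp3 dip there, ending between 0.28 below and 0.81 above zone I in zone III, whereas those of Tgfbr3 part, the brighter being 0.92 below and the dimmer 0.77 above zone I in zone III.

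Some other genes ran close to the members across the 12 arrays, measured as the root mean square of the difference in log2 signal after each gene was centred on its own mean, over 11808 other genes. Closest to Tgfb1 was Ptgis, the prostacyclin synthase, at 0.21, with zone means of 746 (I), 1250 (II) and 2860 (III), followed by Rnf19b and Wsb2 at 0.26 each. Tgfb2 had Msrb3 at 0.13, a methionine sulfoxide reductase (227, 380 and 287 in zones I, II and III), and then Esyt2 and Timm13. Nearest to Tgfbr1 was Gja1, which encodes the gap junction protein connexin 43, at 0.10 (2516, 2090 and 3496).

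For Tgfbr2 the nearest genes were Snrk, Hsdl1 and Cgas, and for Tgfbr3 they were Mfap2 at 0.15, Col6a2 at 0.17 and Wdr90. Mfap2 encodes a glycoprotein of fibrillin microfibrils and Col6a2 a chain of collagen VI. Ltbp1 ran closest to Lhfpl2 at 0.25, Serinc2 and the giant cadherin Fat4, and Ltbp2 to Pknox2 at 0.20, to Prg4 at 0.29, which encodes the joint lubricant lubricin, and to Axl. Ltbp3 had Samd4, Tril and Btbd11, Tgfb3 had Nup133, Nop53 and Wdr6, and Ltbp4 had Vmac, Fam83d and Dnal4. Closeness over 12 arrays with 3 zones is a description of zone patterns.

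The rest of the pathway was read from lists of its genes, by the same test, and no list was tested as a set. Of all 22255 probe sets tested, 15.1% rose and 22.2% fell in zone II against zone I. The shares were 28.5% and 20.9% in zone III against zone II and 21.0% and 19.0% in zone III against zone I. Counts of the Smads and the kinase branch in zone III against zone II lay near these shares. So did those of the co-receptors in zone II against zone I. Of 18 genes that hold or release latent TGF-beta 16 had a probe set and 14 were tested. In zone II against zone I 4 rose and 5 fell, in zone III against zone II 10 rose and 2 fell, and in zone III against zone I 8 rose and 3 fell, with medians of -0.17, 1.16 and 0.74. Fbn2, the fibrillin of fetal microfibrils to which the binding proteins attach, averaged 116 ± 44.6 in zone II against 890 ± 155 in zone I (SD, n = 4 each, -2.99 ± 0.21, adjusted p = 6.42e-07) and 331 ± 7.53 in zone III. The activators did not move together.
Thbs1 (thrombospondin 1) averaged 445 ± 52.5 in zone II, against 186 ± 55.3 in zone I (1.30 ± 0.20, adjusted p = 0.000347), and fell to 50.01 ± 9.57 in zone III (-3.16 ± 0.20 against zone II, adjusted p = 1.37e-07). Itgb8, a chain of the activating integrin alphaVbeta8, was 3.44-fold higher in zone II than in zone I (1.78 ± 0.16, adjusted p = 4.01e-06) and 2.59-fold lower in zone III than in zone II (-1.37 ± 0.16, adjusted p = 1.51e-05). Others were highest in zone III, among them the integrin chains Itgav (1.79 ± 0.10 against zone II, adjusted p = 5.39e-08) and Itgb3 (4.60 ± 0.24, adjusted p = 3.50e-08), and Nrros, which tethers latent TGF-beta on macrophages and microglia (3.41 ± 0.21, adjusted p = 9.22e-08). Mmp9, a gelatinase of osteoclasts, was 66.3-fold higher in zone III than in zone I (6.05 ± 0.36, adjusted p = 7.54e-08). Itgb3 and Mmp9 also stand among the 8 osteoclast markers, all of which rose in zone III against zone II, and the 6 macrophage markers all rose there too, with summed signals of 4101 to 4906 in zone III, against 520 to 848 in zone II. Their part in these rises was not tested.

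The co-receptors and decoys counted 5 genes, all tested, of which 1 rose and 1 fell in zone II against zone I, 4 rose in zone III against zone II and 4 rose in zone III against zone I (medians 0.28, 0.93 and 0.83). Eng, or endoglin, a TGF-beta co-receptor of endothelial cells, fell in zone II against zone I (-1.63 ± 0.36, adjusted p = 0.00366) and rose 5.53-fold in zone III against zone II (2.47 ± 0.36, adjusted p = 0.000113), in both cases as all 8 endothelial markers did. Bambi, a decoy receptor without a kinase, was higher in zone II (0.94 ± 0.14, adjusted p = 0.000304) and in zone III (0.81 ± 0.14, adjusted p = 0.000684) than in zone I. Acvrl1, the endothelial type I receptor, was low throughout, at 67.0 ± 8.79 in zone III, against 35.2 ± 3.42 in zone II (0.93 ± 0.14, adjusted p = 0.000120).

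Of the Smads, Smad3, the effector phosphorylated by Tgfbr1, averaged 673 ± 75.4 for zone I, 308 ± 62.1 for zone II and 707 ± 69.4 for zone III. It fell in zone II against zone I (-1.14 ± 0.15, adjusted p = 0.000111) and rose in zone III against zone II (1.22 ± 0.15, adjusted p = 3.36e-05). Smad2, the other effector, was 1.36-fold lower in zone III than in zone II (-0.44 ± 0.10, adjusted p = 0.00227), and Zfyve9, the adaptor SARA that brings Smads to the receptor, was 1.35-fold lower in zone II than in zone I (-0.44 ± 0.15, adjusted p = 0.0339), a call lost without array C or D of zone I or array A or C of zone II (-0.41 to -0.36, adjusted p = 0.0733 to 0.0904) and with array medians or quantiles set equal (-0.25 and -0.27, adjusted p = 0.177 and 0.158). Among the 4 tested of 5 Smads and adaptors, 0 rose and 2 fell in zone II against zone I, 1 rose and 1 fell in zone III against zone II, and 0 rose and 1 fell in zone III against zone I. With signals centred on ribosomal protein genes the last of these was 0 and the middle one 3 rises and 0 falls.

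The inhibitors and co-repressors of the Smads, 12 genes of which 11 were tested, had 0 rises and 6 falls in zone II against zone I, 8 rises and 0 falls in zone III against zone II, and 4 rises and 1 fall in zone III against zone I (medians -0.55, 0.66 and 0.27). Ski, a co-repressor of Smad target genes, fell 2.60-fold in zone II against zone I (-1.38 ± 0.19, adjusted p = 0.000153) and rose 3.25-fold in zone III against zone II (1.70 ± 0.19, adjusted p = 1.36e-05). Smad6, an inhibitory Smad that acts mainly on BMP signals, averaged 491 ± 56.3 in zone III, against 71.1 ± 21.6 in zone II (2.83 ± 0.19, adjusted p = 2.42e-07). Nedd4l, a ubiquitin ligase of phosphorylated Smads, fell 1.77-fold and rose 2.10-fold in these comparisons (-0.83 ± 0.14 and 1.07 ± 0.14, adjusted p = 0.000741 and 5.33e-05). Skil, the co-repressor SnoN, was 1.94-fold higher in zone III than in zone I (0.96 ± 0.17, adjusted p = 0.000803). With array medians or quantiles set equal, 1 gene of this list rose and 4 fell in zone II against zone I.

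The kinase branch around Map3k7 (TAK1) had 1 rise and 1 fall among 9 genes in zone II against zone I, 3 rises and 1 fall in zone III against zone II and 3 rises and 1 fall in zone III against zone I (medians -0.06, 0.20 and 0.18). Map2k3, a kinase upstream of p38, rose 2.13-fold in zone III against zone II (1.09 ± 0.11, adjusted p = 6.14e-06), and Map3k7 itself was 1.34-fold higher in zone II than in zone I (0.43 ± 0.12, adjusted p = 0.0176). This call was lost without array A of zone I (0.37, adjusted p = 0.0517) or of zone II (0.36, adjusted p = 0.0506), and on the median of its probe sets Map3k7 had the other sign (-0.23, adjusted p = 0.140). The 1 fall, of Map2k3 (-0.33, adjusted p = 0.0355), was lost without any 1 of 7 arrays of these zones, all but array A of zone II (-0.35 to -0.30, adjusted p = 0.0505 to 0.0824). In zone II against zone I the list had 2 rises and 0 falls with array medians set equal and 0 rises and 2 falls with ribosomal centring.

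Of 5 small proteoglycans of the matrix that can hold TGF-beta, 4 fell and 1 rose in zone II against zone I, 3 rose and 1 fell in zone III against zone II, and 4 fell in zone III against zone I (medians -1.72, 1.27 and -0.67). Bgn (biglycan) averaged 1926 ± 312 for zone I, 501 ± 58.5 for zone II and 1202 ± 94.2 for zone III, and Aspn (asporin) fell 6.50-fold in zone II against zone I (-2.70 ± 0.29, adjusted p = 1.82e-05). Dcn (decorin) fell 3.15-fold there (-1.66 ± 0.22, adjusted p = 9.47e-05) and rose 3.70-fold in zone III against zone II (1.89 ± 0.22, adjusted p = 1.58e-05). Lum (lumican) ran the other way, with a rise of 0.34 ± 0.11 in zone II against zone I (adjusted p = 0.0263) and a fall of 0.65 in zone III against zone II (-0.65 ± 0.11, adjusted p = 0.000268). With array quantiles set equal or with ribosomal centring both of these calls were lost, as was the first without array B of zone I or array A or B of zone II (0.29 to 0.31, adjusted p = 0.0569 to 0.0699). These scalings left 0 rises and 4 falls in the list in zone II against zone I, and 3 rises and 0 falls in zone III against zone II.

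Of 18 genes known as TGF-beta targets in other cells, 16 had a probe set and were tested: 4 rose and 6 fell in zone II against zone I, 10 rose and 1 fell in zone III against zone II, and 7 rose and 5 fell in zone III against zone I (medians -0.40, 0.70 and 0.12). Among these targets, Col1a1 is also an osteoblast marker here, and Fn1 is also counted with the genes that hold or release latent TGF-beta. Cdkn1a, the cell cycle inhibitor p21, averaged 1647 ± 245 in zone II, against 145 ± 27.4 in zone I (3.51 ± 0.16, adjusted p = 2.60e-08). Postn (periostin) fell 7.05-fold in the same comparison (-2.82 ± 0.25, adjusted p = 4.63e-06), and Col3a1, a fibrillar collagen of soft connective tissue, 2.46-fold (-1.30 ± 0.18, adjusted p = 0.000136). Tgfbi, a matrix protein named for its induction by TGF-beta, was at 617 ± 63.6 in zone III, against 2974 ± 466 in zone II (-2.26 ± 0.13, adjusted p = 7.15e-08), while Cdkn2b, the inhibitor p15, rose to 482 ± 46.9 in zone III, against 36.6 ± 16.4 in zone II (3.82 ± 0.45, adjusted p = 1.87e-05).

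**Figure D5:**
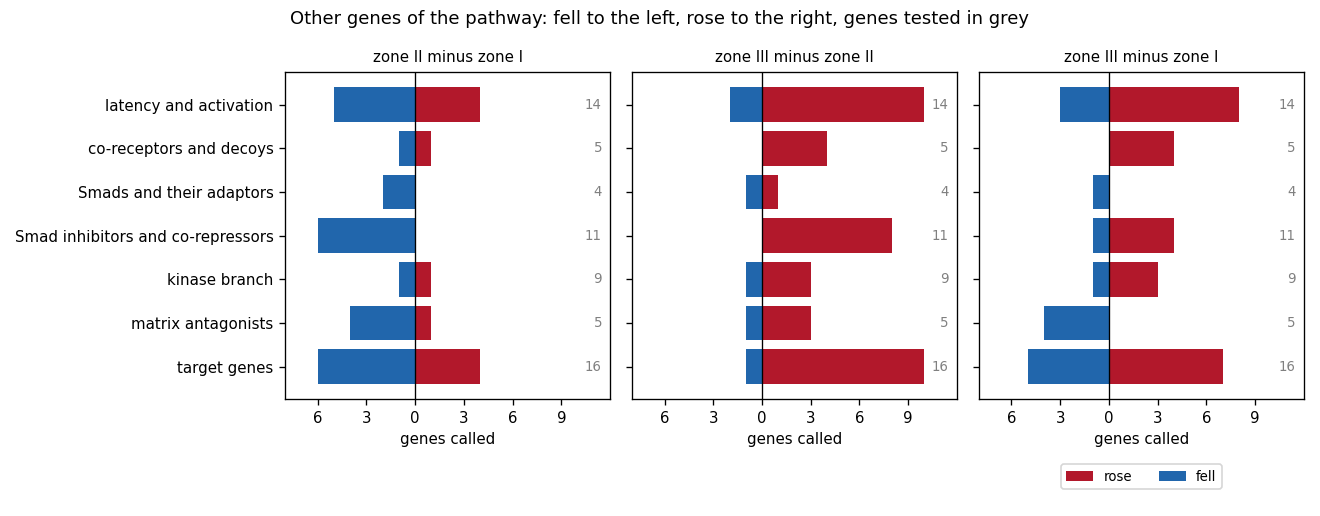
Number of genes in each of 7 pathway lists that rose (red, to the right) or fell (blue, to the left) at an adjusted p under 0.05 in zone II against zone I, zone III against zone II and zone III against zone I, with the number tested in grey. The Smad inhibitors and co-repressors had 6 falls and 0 rises in zone II against zone I and 8 rises and 0 falls in zone III against zone II. Of all probe sets tested, 15.1%, 28.5% and 21.0% rose and 22.2%, 20.9% and 19.0% fell in the 3 comparisons, in that order.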

How the data were processed

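Tibiae of CD1 mouse embryos were cut into 3 zones by the authors, pooled within each of 4 litters and hybridised to MOE 430 2.0 arrays. The deposited values are linear signal intensities, 1 per probe set and array, whose mean after trimming 2% at each end is 150 on every array. The methods name GCRMA and RMA and the submitters' processing notes name RMA, but which algorithm gave these values is not stated in the sources used, and its background treatment bears on signals under 50. The run was read from the hybridization date in the deposited scanner records, which hold other array details. With 4 arrays per zone, their number limits the precision.

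The log2 of each signal was used, without a constant. Controls were left out, and a probe set was tested if the mean of at least 1 zone reached 50. limma 3.58.1 in R 4.3.3 (lmFit, eBayes) fitted 3 zones on 12 arrays with 1 shared spread, and p was adjusted by Benjamini-Hochberg over 22255 probe sets within each comparison. A call was an adjusted p under 0.05. The fit was tested on simulated data first. Each litter gave all 3 zones, but no source used here says that a letter marks a litter, so the fit without the letter is reported and calls that the letter as a block changes are given beside it. Deviations of arrays from their zone means had a median correlation of 0.15 over 12 pairs of the same letter (-0.13 to 0.26, 8 above 0.1) and of -0.05 over 36 pairs of different letters (6 above 0.1). Named pathway genes are, per list and comparison, up to 3 in each direction with the lowest adjusted p among those called. The genes, lists and markers were chosen with earlier results of these data known. Of 34958 probe sets with 1 symbol, 34754 matched the gene table by Entrez ID. Sequences are from RefSeq. Alternatives covered the filter, scaling, added constant, samples in the fit, array weights, run or letter as a block, each array left out, probe sets summarised by their median and a 1.5-fold minimum.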

Additional observations from a re-analysis of the deposited data

Results flagged for a closer look

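Of 30 groups of 4 arrays, 10 genes in 3 zones, 1 held an array that stood apart from the other 3. Array B of zone III had a Tgfbr3 signal of 181, and the other 3 arrays of that zone had 222 to 231. The gap to the nearest array was 0.835 of the whole range of the zone in log2 signal, just above Dixon's 95% critical value for 4 values. Chance alone gives about 1 such group in 20. Without this array the Tgfbr3 difference between zones III and II was 0.41 (adjusted p = 0.0362), against 0.33 (adjusted p = 0.0653) with it.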

How the results depend on the processing

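Over 26 alternatives, the count of the 10 genes called ran from 7 to 10 between zones II and I (9 as reported), 5 to 8 between zones III and II (7) and 3 to 7 between zones III and I (4). With the replicate block by letter the last was 7, with 3 rises and 4 falls (added were Tgfb2, Ltbp1 and Ltbp4), and the count between zones II and I was 10 and between zones III and II 8. The block changed 5 differences, each given beside its gene. Leaving out 1 array at a time gave counts of 8 to 10, 7 to 8 and 4 to 6. Of 777 refits of the 30 differences, 717 kept sign and side of the threshold, 27 lost the call, 25 gained it and 8 turned sign, none of the 8 a called difference. These were Tgfbr2 (-0.058) and Ltbp3 (0.33) between zones III and I as the median of their probe sets, and Ltbp4 between zones III and II with ribosomal protein centring (0.38) and over arrays left out (-0.12 to 0.10). In the reported fit the Tgfbr2, Ltbp3 and Ltbp4 differences were 0.21, -0.28 and -0.005, of which only the last was near 0. Lost calls include Tgfb1 between zones II and I (0.64, adjusted p = 0.0543) and Tgfb2 between zones III and II (-0.10, adjusted p = 0.532) with ribosomal centring, Tgfb3 (-0.38, adjusted p = 0.119) and Tgfbr1 (-0.16, adjusted p = 0.251) between zones II and I with array medians set equal, both also without the filter, and, on the median of probe sets, every call of Tgfbr1 and Tgfbr2 and that of Tgfbr3 between zones III and I, where all further probe sets of Tgfbr1 and Tgfbr2 are under 50, and that of Tgfb1 between zones III and II (0.65, adjusted p = 0.0545). The cause of the other losses was not tested. Scaling moved all probe sets: the median difference for zone II minus I, zone III minus II and zone III minus I was -0.30, 0.48 and 0.17 with ribosomal centring and 0.11, -0.15 and -0.05 with medians set equal, and the probe sets that rose and fell were 3368 and 4946, 6348 and 4660, and 4672 and 4219 as reported, 1496 and 7539, 10987 and 1873, and 5893 and 2733 with ribosomal centring, 5417 and 3435, 4514 and 7121, and 4215 and 4832 with medians set equal, and 3620 and 3933, 5092 and 5531, and 4470 and 4810 with quantiles set equal. Of the named pathway genes, Smad3 and Nedd4l between zones II and I (-0.22, adjusted p = 0.575, and -0.35, adjusted p = 0.160) and III and II (0.49, adjusted p = 0.153, and 0.12, adjusted p = 0.636) and Itgav between zones III and II (0.26, adjusted p = 0.383) lost their calls on the median of probe sets. No called difference of the 10 genes changed sign under any of these scalings. List counts moved by over 1.5 times in 34 of 546 refits, in the Smads (2 to 1, 2 to 1 and 1 to 0 in the 3 comparisons), the Smad inhibitors between zones III and I (5 to 3) and the kinase branch between zones II and I (2 to 1 or 0) and III and I (4 to 2).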
